A study of Mus musculus with 2 samples.

Results

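The major histocompatibility complex (MHC) class II genes and their master regulator Ciita were followed across 6 kinds of white blood cell of the mouse retinal pigment epithelium (RPE) and choroid. The 10 members, of 32285 genes counted, were taken from a list of gene names: H2-Aa, H2-Ab1, H2-Eb1, Cd74, Ciita, H2-DMa, H2-DMb1, H2-DMb2, H2-Oa and H2-Ob. The list itself uses no measured value, though it was drawn up with earlier results of these data known. The series holds 2 single-cell RNA libraries, 1 per group, of live cells sorted for CD45, a surface protein of white blood cells. Both groups had been given NaIO3 (sodium iodate) at 20 mg/kg by the intraperitoneal route, a chemical injury model in which the RPE degenerates. The flox library came from mice labelled with the genotype IL-17ra fl, whose Il17ra gene carries recombination sites, and the knockout library from mice labelled IL-17RA CKO, a conditional knockout of the same gene. The labels used here do not name the Cre driver or the cell type that lost Il17ra, nor the deleted exons, the animals' ages or how many were pooled. With 1 library per group no difference has a replicate check, no test was made. Ranges in parentheses are 95% intervals and reflect counting error alone. In each comparison of the libraries the genotype cannot be told apart from the animals and the library preparation. Nor can it be told apart from the counting software, whose version differed between the libraries (Cell Ranger 4 for flox, 7.0.1 for knockout).

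MHC class II molecules display peptides from engulfed material to CD4 T cells. H2-Aa with H2-Ab1, and H2-Eb1 with a partner chain, encode the peptide-holding chains. Cd74, the invariant chain, occupies the groove while the molecule travels to the endosome, where H2-DM, made from H2-DMa and an H2-DMb gene, exchanges the remnant of Cd74 for peptide, and H2-O, made from H2-Oa and H2-Ob, restrains H2-DM. Ciita is a co-activator that binds no DNA itself and assembles on the RFX, NF-Y and CREB factors at the promoters of these genes. B cells and dendritic cells express the pathway constitutively, monocytes and macrophages express it when induced, chiefly by interferon-gamma, and mouse T cells are known to lack it.

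The cells were drawn from barcodes with at least 1000 unique molecular identifiers (UMIs, tags that let a captured molecule be counted 1 time) and less than 10% mitochondrial UMIs, which left 3420 flox and 3982 knockout cells with medians of 8741 and 7714 UMIs. Only 4 barcodes of that depth occurred in both libraries. Each gate is a minimum number of marker UMIs per cell. B cells (Cd79a, at least 2) numbered 632 in flox and 1007 in knockout, classical monocytes (F13a1 plus Chil3, at least 3) 416 and 312, and nonclassical monocytes (Cd300e plus Adgre4, at least 2) 545 and 523. Type 1 conventional dendritic cells (cDC1, Xcr1 plus Clec9a, at least 2) numbered 97 and 64, type 2 (cDC2, Cd209a plus Clec10a, at least 2) 203 and 150, and T cells (Cd3d plus Cd3e, at least 2) 1378 and 1663. A cell may pass several gates: 168 flox and 130 knockout cells passed both monocyte gates, and 59 and 50 passed the classical monocyte and the cDC2 gate. Of the fixed markers that no gate used, all 4 of B cells, all 4 of classical monocytes, all 4 of nonclassical monocytes, all 5 of cDC1 and all 4 of T cells were highest in their own gate in both libraries. Only 1 of 5 cDC2 markers, Mgl2, was highest in the cDC2 gate in both, so that name stands for the rule and not for a pure cell type. The summed level of Siglech and Ccr9, markers of plasmacytoid dendritic cells, was 157 and 299 counts per 1000000 UMIs (CPM) in the cDC2 gate and 230.5 and 427 CPM in the cDC1 gate. Il17ra, the targeted gene, had 4639 UMIs among the kept flox cells and 4408 among the kept knockout cells, or 132 and 123 CPM. A tag outside the deleted exons checks nothing, so the labels were not checked by it. Both libraries mixed cells of both sexes in unequal parts, as seen from Xist and Y-linked UMIs, so values within each sex are given where they bear on a result.

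Of the 10 genes, 8 lie within 1 stretch of chromosome 17 (GRCm38, called mm10 in the submitters' processing notes), in the order H2-Oa (ENSMUSG00000024334, 34092340 to 34095234), H2-DMa (ENSMUSG00000037649, 34119541 to 34139101), H2-DMb2 (ENSMUSG00000037548, 34143307 to 34151555), H2-DMb1 (ENSMUSG00000079547, 34153072 to 34160230), H2-Ob (ENSMUSG00000041538, 34238903 to 34254414), H2-Ab1 (ENSMUSG00000073421, 34257689 to 34269419), H2-Aa (ENSMUSG00000036594, 34282744 to 34287823, the only one of them on the minus strand) and H2-Eb1 (ENSMUSG00000060586, 34305867 to 34316674). Ciita (ENSMUSG00000022504) lies on chromosome 16 from 10480059 to 10528418 on the plus strand. These 9 genes and Cd74 are annotated as protein-coding.

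Promoter sequences are shown for members that differed in the gate where their RNA was highest. Of the 10 members, 7 had a promoter in the RefSeq table (GRCm38.p6). The 250 bases before the RefSeq start are shown for the peptide-holding chains H2-Aa and H2-Eb1, for the near copies H2-DMb1 and H2-DMb2 and for the H2-O pair. Of these, H2-Aa, H2-Eb1 and H2-DMb1 were highest in the dendritic gates, and H2-DMb2, H2-Oa and H2-Ob in the B gate. The RefSeq start is not always that of the gene intervals given above. The H2-DMb2 stretch lies within its interval, and those of H2-DMb1, H2-Oa and, by its last bases, H2-Ob reach into theirs. Capitals mark the motifs searched on both strands: CTGATTGG (the core of the Y box, the NF-Y site), the shorter ATTGG that overlaps it, ACAGATG (the end of the X box), and TGATGC, which was added after the sequences had been read.
H2-Aa, chr17:34287824-34288073, minus strand: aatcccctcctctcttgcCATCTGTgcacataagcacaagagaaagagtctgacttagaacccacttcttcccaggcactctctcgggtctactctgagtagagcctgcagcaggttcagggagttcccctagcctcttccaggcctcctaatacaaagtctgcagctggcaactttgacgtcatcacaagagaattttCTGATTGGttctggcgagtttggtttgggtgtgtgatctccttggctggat
H2-Eb1, chr17:34305617-34305866, plus strand: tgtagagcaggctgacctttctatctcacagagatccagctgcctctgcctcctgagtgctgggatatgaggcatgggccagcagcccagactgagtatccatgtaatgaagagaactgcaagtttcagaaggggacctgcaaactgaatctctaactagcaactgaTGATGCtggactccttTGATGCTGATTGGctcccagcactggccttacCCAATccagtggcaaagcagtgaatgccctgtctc
H2-DMb1, chr17:34152941-34153190, plus strand: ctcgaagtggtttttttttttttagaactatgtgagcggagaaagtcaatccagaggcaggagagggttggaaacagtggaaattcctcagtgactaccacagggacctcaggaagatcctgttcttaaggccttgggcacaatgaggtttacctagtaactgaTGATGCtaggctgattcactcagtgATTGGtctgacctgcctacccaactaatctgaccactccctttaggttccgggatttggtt
H2-DMb2, chr17:34144999-34145248, plus strand: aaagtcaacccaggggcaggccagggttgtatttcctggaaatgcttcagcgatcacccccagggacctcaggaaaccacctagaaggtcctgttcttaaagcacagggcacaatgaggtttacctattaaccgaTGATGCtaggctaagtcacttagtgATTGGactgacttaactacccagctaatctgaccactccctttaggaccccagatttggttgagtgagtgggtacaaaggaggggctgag
H2-Oa, chr17:34092129-34092378, plus strand: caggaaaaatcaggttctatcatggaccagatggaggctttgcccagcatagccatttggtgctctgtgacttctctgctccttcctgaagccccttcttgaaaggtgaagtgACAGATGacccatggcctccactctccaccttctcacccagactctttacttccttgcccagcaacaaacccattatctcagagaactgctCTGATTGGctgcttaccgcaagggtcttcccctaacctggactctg
H2-Ob, chr17:34238655-34238904, plus strand: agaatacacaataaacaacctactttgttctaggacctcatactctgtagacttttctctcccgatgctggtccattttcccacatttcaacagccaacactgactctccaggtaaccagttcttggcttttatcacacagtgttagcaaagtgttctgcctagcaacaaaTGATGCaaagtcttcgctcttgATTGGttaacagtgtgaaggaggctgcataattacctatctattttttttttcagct
ATTGG stood in all 6, first at 48, 59, 61, 90, 43 and 57 bases before the start in the order shown, and in 33.8% of 32851 promoters of that length. The longer CTGATTGG stood in H2-Aa, H2-Eb1 and H2-Oa, and in 3.83% of all promoters. TGATGC stood in H2-Eb1, H2-DMb1, H2-DMb2 and H2-Ob at 24, 25, 25 and 22 bases ahead of ATTGG, and in 9.18% of all promoters. ACAGATG stood in H2-Oa at 137 bases and, on the other strand, in H2-Aa at 232 bases before the start, and in 4.15% of all. In neither did it stand as near to ATTGG (43 and 48 bases before the start) as TGATGC did in the others, so no X box is read from it. The promoters of H2-DMb1 and H2-DMb2 shared 175 of 209 aligned bases (83.7%), and the marked motifs stood in the same order and at the same spacing in both. A match is a description of letters, not of binding.

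The peptide-holding chains were highest in the dendritic cell gates, then in B cells, then in both monocyte gates, and lowest in T cells, in both libraries. Levels are given in CPM over all UMIs of the cells of a gate; the 3' tags count molecules and do not grow with transcript length. Summed over H2-Aa, H2-Ab1 and H2-Eb1, called class II UMIs from here on, the cDC2 gate held 17369 CPM in flox and 15859.7 in knockout and the cDC1 gate 15234 and 13513. The B gate held 10304 and 9662, the nonclassical monocyte gate 3826 and 2872, the classical monocyte gate 2990.0 and 3151, and the T gate 317 and 262. H2-Aa (5245 and 4754 CPM) and H2-Eb1 (4514 and 3940 CPM) in the cDC1 gate lay below both libraries of the cDC2 gate (6094 and 5619.6 for H2-Aa, 5387 and 4959.5 for H2-Eb1). For H2-Ab1 these gates overlapped, at 5888 and 5280.5 CPM in cDC2 against 5475 and 4818.5 in cDC1. The monocyte gates overlapped for all 3 chains, and B cells lay between dendritic cells and monocytes for each.

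**Figure D1:**
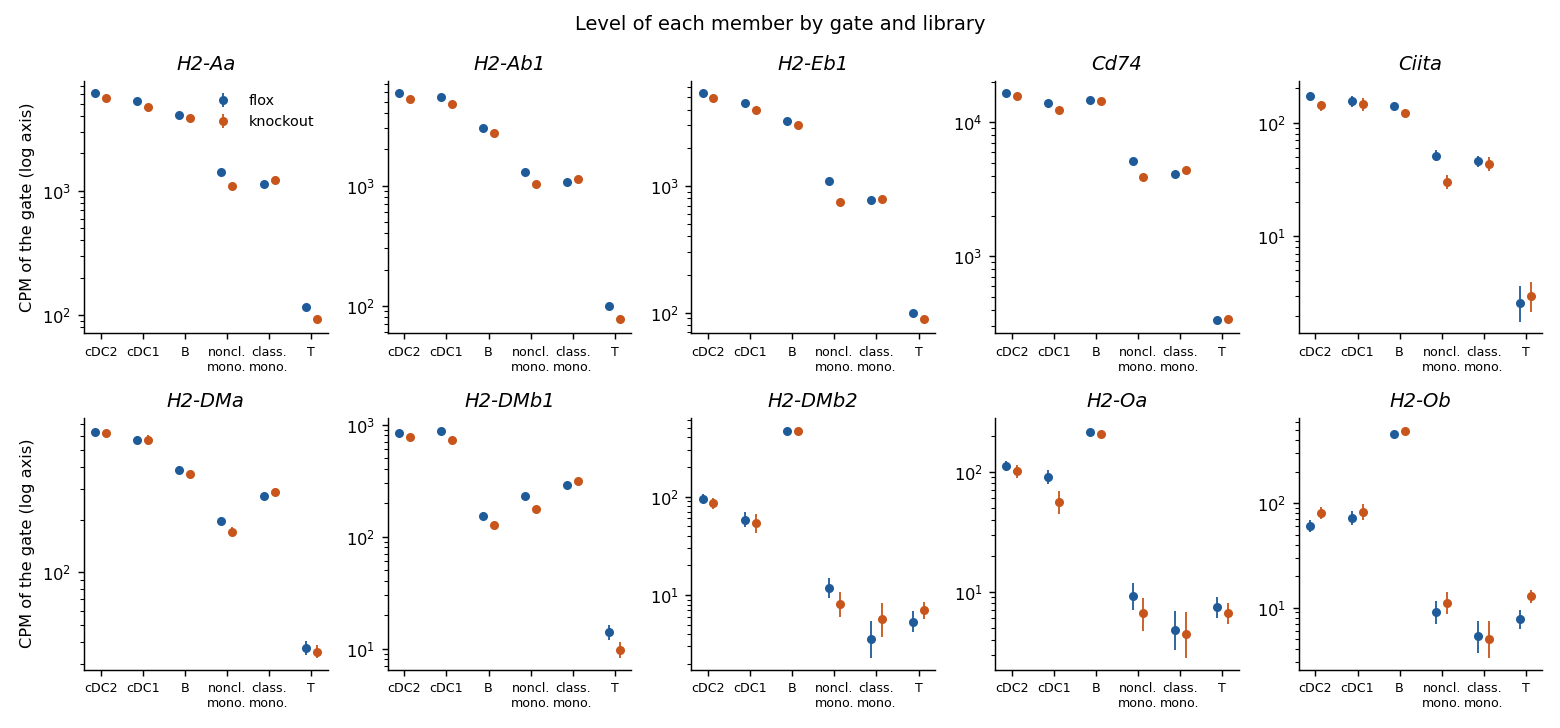
Level of each member in CPM (log axes that differ between panels) in 6 gates; blue points are the flox library, orange points the knockout library, and bars the 95% Poisson counting interval. H2-DMb2, H2-Oa and H2-Ob peak in the B gate, H2-DMb1 in the dendritic gates, and the other members are highest in the dendritic and B gates, lower in monocytes and lowest in T cells.

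These sums hide unlike distributions over cells. In the B gate the level was even: the median cell held 62.5 class II UMIs in flox and 66 in knockout, the middle of the distribution ran from 42 to 84 and from 45 to 85 (quartiles), and 83.4% (80.2 to 86.2) and 85.4% (83.1 to 87.5) of cells held 10 to 99. Cells with none were 5 of 632 and 10 of 1007. In the dendritic gates most cells were high and a minority held little: 74.2% and 65.6% of cDC1-gate cells, and 69.5% and 62.7% of cDC2-gate cells, held 100 or more, while 8.25% and 4.69%, and 9.36% and 7.33%, held none. Among cells of no other gate the shares at 100 or more were higher, at 89.8% and 87.9% for cDC1 and 85.1% and 80.9% for cDC2. These groups are not scaled to depth. Median depth was 6196 and 6468 UMIs in the B gate, 22324 and 20771 in cDC1 and 18254 and 18068 in cDC2. Thinned to 1000 UMIs per cell, no cell of these gates held 100 or more. The shares with 10 to 99 were then 57.1% and 56.3% in B, 64.95% and 56.25% in cDC1 and 64.0% and 60.7% in cDC2.

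Monocytes showed the opposite shape, with most cells near 0 and a few very high. The median cell of the classical gate held 1 class II UMI in each library, and that of the nonclassical gate 1 in flox and 0 in knockout. Cells with 100 or more made up 14.4% (11.2 to 18.2) and 16.4% (12.4 to 20.9) of the classical gate and held 84.3% and 82.9% of its class II UMIs. In the nonclassical gate 13.9% (11.2 to 17.1) and 10.3% (7.85 to 13.3) of cells held 83.3% and 82.4%. Most class II UMIs of each monocyte gate thus lay in a minority of its cells.

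**Figure D2:**
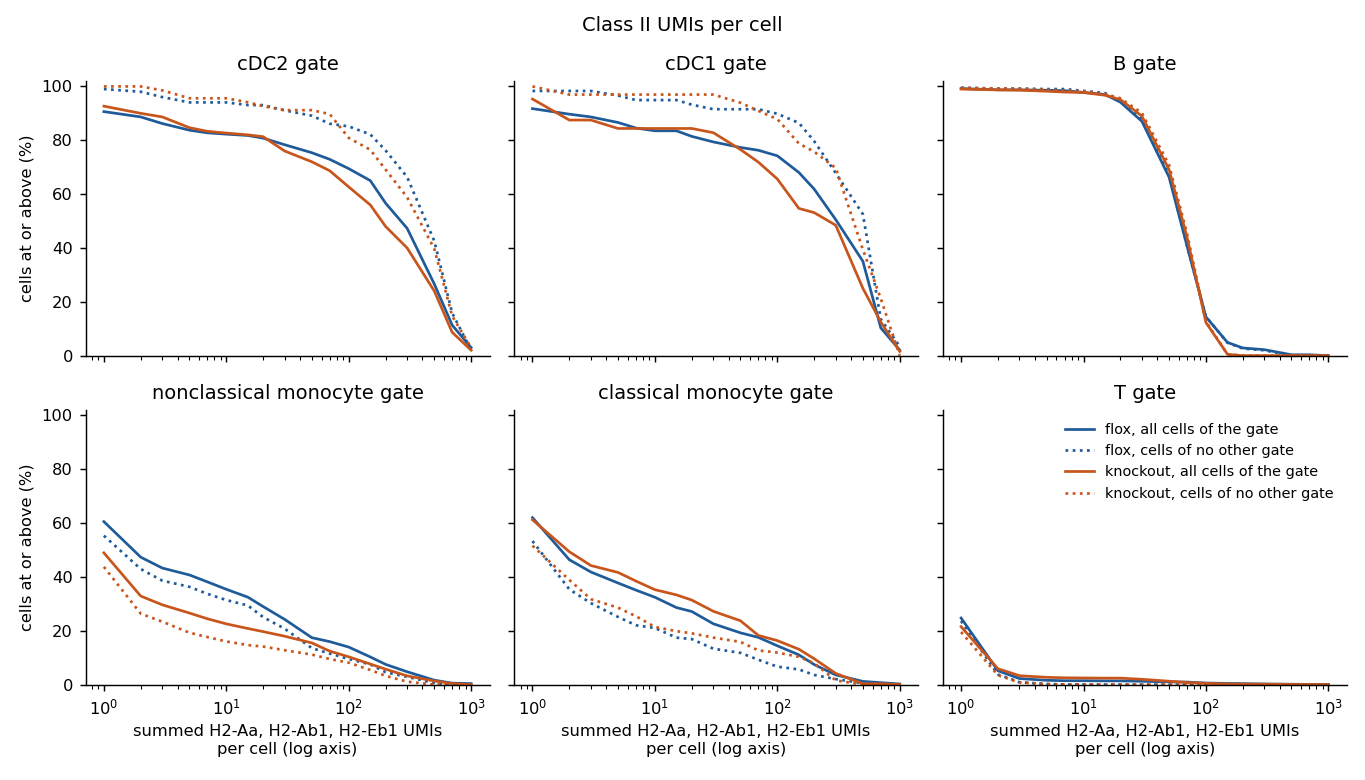
Share of cells (vertical axis, %) at or above a given number of summed H2-Aa, H2-Ab1 and H2-Eb1 UMIs (horizontal axis, log scale) in each gate; solid lines are all cells of the gate, dotted lines those that pass no other gate, blue flox, orange knockout. B cells fall steeply between 30 and 100 UMIs, dendritic cells above 200, and monocytes decline slowly over the whole range, with the nonclassical knockout line below the flox line. UMIs are not scaled to the depth of the cell, and depth differed between the gates.

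In the classical monocyte gate Cd74, Ciita, H2-DMa and H2-DMb1 were higher in cells with more class II UMIs, and the monocyte markers behaved unequally. Classical-gate cells without a class II UMI (158 flox, 121 knockout) held Cd74 at 335 and 339.6 CPM and Ciita at 5.10 and 5.44 CPM. Those with 100 or more (60 and 51) held Cd74 at 16019.8 and 15568 CPM, Ciita at 166 and 163 CPM and H2-DMb1 at 933 and 1054 CPM (52.4 and 58.2 without a class II UMI), levels close to those of the dendritic gates. H2-DMa went from 169 and 155 to 563 and 599.7 CPM. The gate's own marker Chil3 went from 1236 and 1041 CPM down to 138 and 195, and F13a1 from 725 and 825 to 403 and 544. In the same high cells Ccr2 (1019 and 1014 CPM) and Ly6c2 (975 and 832 CPM) were near their levels in cells without class II UMIs (1099.8 and 939.8 CPM, and 1149.8 and 1008 CPM), but both were also found in the cDC2 gate, at 851 and 750.3 CPM and 719 and 419 CPM. The dendritic markers moved with the chains: Cd209a went from 10.2 and 4.90 to 236.5 and 287 CPM and Flt3 from 13.4 and 13.6 to 50.3 and 44.5 CPM, and 27 of 60 and 23 of 51 high cells also passed a dendritic gate. Zbtb46, a dendritic lineage factor, was at 11.5 and 8.68 CPM in the high cells against 39.1 and 50.8 CPM in the cDC2 gate. The part of dendritic cells in these levels was not tested.

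Cd74 (ENSMUSG00000024610, chromosome 18, 60803848 to 60812652, plus strand), the invariant chain, followed the peptide-holding chains but reached further down. It stood at 16549 and 15787 CPM in the cDC2 gate, 14547 and 14334 in B cells, 13980.1 and 12325 in cDC1, 5128 and 3895 in nonclassical and 4140.5 and 4373 in classical monocytes, and 336 and 342.5 in T cells. Over all cells of the gates, B cells thus lay above cDC1 for Cd74 in both libraries and below it for each of the chains. In cells of no other gate the order for Cd74 was lost. There B cells held 15117 and 15176 CPM and cDC1 16182 and 14632 CPM, which overlapped. In monocytes without a class II UMI Cd74 was still found in 77.2% and 80.2% of classical-gate and 78.6% and 79.8% of nonclassical-gate cells. Over the whole monocyte gates a Cd74 UMI was found in 86.3% to 89.0% of cells, against 24.9% and 22.8% in the T gate, the type that should lack it. The median depth was 15066 and 16122 UMIs in the classical gate, 11654 and 10883 in the nonclassical gate and 8701 and 8007 in the T gate. Thinned to 2000 UMIs per cell, the Cd74 shares were 63.6% and 64.4% in classical and 72.4% and 64.9% in nonclassical monocytes, against 8.49% and 9.14% in T cells.

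Ciita, the regulator, was a low-count gene with the same order. It stood at 171 and 142 CPM in the cDC2 gate, 154 and 146 in cDC1, which overlapped, 139 and 122 in B cells, 45.6 and 43.4 in classical and 51.2 and 30.3 in nonclassical monocytes, and 2.57 and 2.95 in T cells. A Ciita UMI was found in 71.9% and 60.0% of cDC2-gate, 72.2% and 70.3% of cDC1-gate and 46.5% and 45.6% of B cells, and in 1.67% and 1.80% of T cells. Within the monocyte gates its detection rose with the class II UMIs of the cell: in the nonclassical gate it was found in 1.86% and 1.87% of cells with none, 12.4% and 2.90% of those with 1 to 9, 29.1% and 34.4% of those with 10 to 99 and 57 of 76 and 33 of 54 cells with 100 or more. Median depth rose over these groups as well, from 9144 and 9531 to 18026 and 18127 UMIs, and its part was not tested.

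Over single cells of no other gate the chains tracked each other closely in monocytes and dendritic cells and less in B cells. Spearman's correlation of H2-Aa with H2-Ab1, each per 10000 UMIs of the cell, was 0.78 and 0.84 in classical and 0.86 and 0.73 in nonclassical monocytes, 0.75 and 0.81 in cDC1, 0.80 and 0.87 in cDC2, 0.47 and 0.51 in B cells and 0.01 and 0.04 in T cells. With H2-DMb1 the correlation was 0.62 and 0.58 in classical and 0.65 and 0.51 in nonclassical monocytes, but 0.09 and 0.14 in cDC2. These are descriptions over 33 to 1607 cells that share a library and a scaling by depth.

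H2-DM, the peptide exchanger, differed between gates in the RNA balance of its 2 beta chain genes. H2-DMa, its alpha chain, ran from 632 and 622 CPM in cDC2 and 571 and 570.1 in cDC1 over 387 and 366 in B cells, 272.5 and 289 in classical and 197.5 and 171 in nonclassical monocytes to 37.1 and 35.3 in T cells. Of its possible beta chains, H2-DMb1 was highest in dendritic cells (848.5 and 779 CPM in cDC2, 870.1 and 722.5 in cDC1), then in classical (291 and 312) and nonclassical monocytes (229 and 177), and lower in B cells (154 and 127). H2-DMb2 was instead highest in B cells, with 465 and 468 CPM in B cells, 95.2 and 86.1 in cDC2, 58.3 and 54.1 in cDC1, and 12 or less in every other gate. H2-DMb1 made up 24.9% (23.3 to 26.5) and 21.3% (20.1 to 22.6) of the 2 genes' UMIs in B cells, but 98.8% and 98.2% in classical monocytes, 95.1% and 95.7% in nonclassical monocytes, 93.7% and 93.0% in cDC1 and 89.9% and 90.05% in cDC2. The 2 genes are near copies, and how the counting treated reads that fit both is not known here, so the exact split is uncertain. Both occurred in the same B cell in 306 of 632 and 490 of 1007 cells, H2-DMb2 alone in 248 and 422, and H2-DMb1 alone in 26 and 28.

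The cDC2 gate was not uniform in H2-DMb2. No H2-DMb2 UMI was seen in 138 of 203 flox and 96 of 150 knockout cells, while 28 and 18 cells held 5 or more. In those cells, which were chosen by H2-DMb2, H2-Oa stood at 327 and 278 CPM, against 46.1 and 31.3 in cells without H2-DMb2. H2-Ab1 stood at 10684 and 10228 CPM against 4183 and 3365, and Ciita at 262 and 283 against 137 and 102.5. H2-DMb1 did not follow: it was 742.5 and 623 CPM in the high cells and 837 and 764 in those without H2-DMb2. The B cell marker Ms4a1 had no UMI in the high cells of either library, and Cd79a 1.55 and 0 CPM. The classical monocyte marker Ly6c2 was at 0 and 6.63 CPM there, against 1002 and 644 CPM in cells without H2-DMb2, and Irf8 at 21.7 and 37.5 against 268 and 351.5. The limit of 5 UMIs was chosen after the data had been seen.

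H2-O, the restraint on H2-DM, was concentrated in B cells. H2-Oa stood at 212 and 207 CPM in B cells, 111 and 101 in cDC2, 90.6 and 55.5 in cDC1, and 10 or less in the monocyte and T gates. H2-Ob stood at 462 and 492 CPM in B cells, 72.2 and 82.2 in cDC1 and 60.1 and 81.0 in cDC2, which overlapped, and 13 or less elsewhere. H2-O genes gave 40.1% (39.0 to 41.2) and 42.1% (41.2 to 43.0) of all H2-O and H2-DM UMIs in B cells, 9.82% and 10.9% in cDC2, 9.80% and 9.28% in cDC1, 4.01% and 4.74% in nonclassical and 1.76% and 1.55% in classical monocytes. The plot of this balance shows the B gate apart from all others in both libraries.

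**Figure D3:**
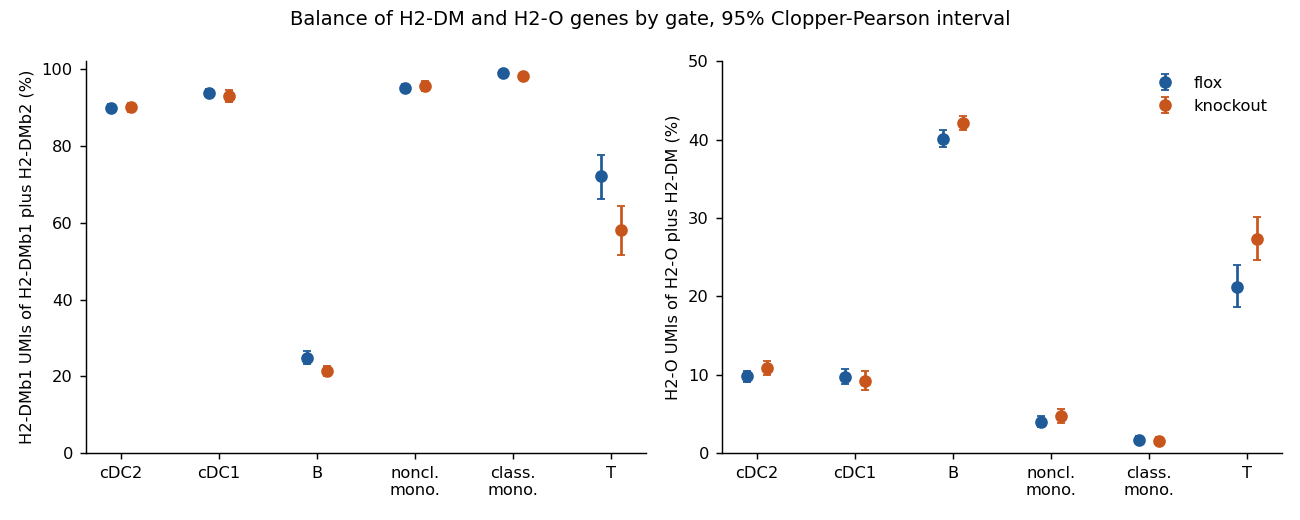
Left, H2-DMb1 UMIs as a percentage of H2-DMb1 plus H2-DMb2 UMIs; right, H2-Oa plus H2-Ob UMIs as a percentage of all H2-O and H2-DM UMIs, by gate; blue is flox, orange knockout, bars the 95% Clopper-Pearson interval. In the B gate most UMIs of the H2-DMb pair are of H2-DMb2 (24.9% and 21.3% H2-DMb1), and the H2-O share is the largest (40.1% and 42.1%).

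In the T gate nearly all class II UMIs sat in cells that also carried markers of another gate. The 28 flox and 56 knockout T-gate cells that passed a further gate held 90.2% and 89.7% of the gate's class II UMIs. In the other 1350 and 1607 cells class II UMIs stood at 32.3 and 28.5 CPM in place of 317 and 262 CPM, and only 1 cell in each library held 10 or more. A Scrublet doublet call covered 14 and 43 T-gate cells. T-gate levels and ratios are therefore read as a background.

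Relative to the chains, H2-DMa, H2-Oa and H2-Ob stood furthest above free RNA in flox T cells. Free RNA, measured in the flox barcodes of 1 to 100 UMIs, held 4.47 H2-DMa, 1.11 H2-Oa, 2.17 H2-Ob and 106 Cd74 UMIs for every 100 class II UMIs. In flox T cells of no other gate the same ratio was 117 for Cd74, near that of free RNA, but 82.7 for H2-DMa, 17.1 for H2-Oa and 14.8 for H2-Ob. Ciita (2.76 against 1.14 in free RNA), H2-DMb2 (3.27 against 1.54) and H2-DMb1 (6.03 against 4.10) were also higher, from 11, 13 and 24 UMIs in these T cells. In knockout T cells it was 93.7 for H2-DMa, 15.2 for H2-Oa and 21.8 for H2-Ob; free RNA of the knockout library was not analysed here, as its matrix starts at 500 UMIs. H2-DMa was found in 243 of 1350 and 306 of 1607 of these T cells at 26.7 CPM in each library, and H2-Aa in 9.19% and 7.16%. The annotated H2-DMa overlaps Brd2 on the opposite strand (34112023 to 34122634) and H2-Oa lies within BC051537 on the opposite strand, and a part of these neighbours in the counts was not tested.

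Between the libraries most members differed by less than 1.5-fold, the size used here as a limit, read only where a gene had 100 or more UMIs over the 2 libraries. In the B gate 0 of 10 members passed it in either direction, beside 3.49% lower and 1.46% higher in the knockout over all genes of the gate. In the classical monocyte gate 0 of 7 passed, beside 2.84% lower and 2.4% higher, and in the cDC2 gate 0 of 10, beside 3.1% lower and 2.77% higher. In the nonclassical monocyte gate 1 of 10, Ciita, was lower, beside 2.46% lower and 1.43% higher over all genes. In the cDC1 gate 1 of 10, H2-Oa, was lower, beside 3.81% lower and 3.61% higher, and in the T gate 1 of 9, H2-Ob, was higher, beside 3.16% lower and 2.18% higher. In most gates the members leaned to 1 side of 0. In the nonclassical and cDC2 gates 9 of 10 members were below 0 on the log2 scale with H2-Ob the exception, and in the B gate 8 of 10. In the cDC1 gate 8 of 10 were below 0 after rounding. There H2-DMa, with a ratio of 0.9986, rounded to 0, and only H2-Ob was above. In the classical monocyte gate 6 of 7 were above 0, and in the T gate 6 were below and 3 above. The median log2 ratio over the members was -0.39 in nonclassical monocytes, -0.16 in cDC1, -0.12 in cDC2, -0.08 in B cells and 0.08 in classical monocytes, where the median over all genes lay between -0.01 and 0.03. The members share cells and 1 regulator, so they do not count as separate measurements.

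**Figure D4:**
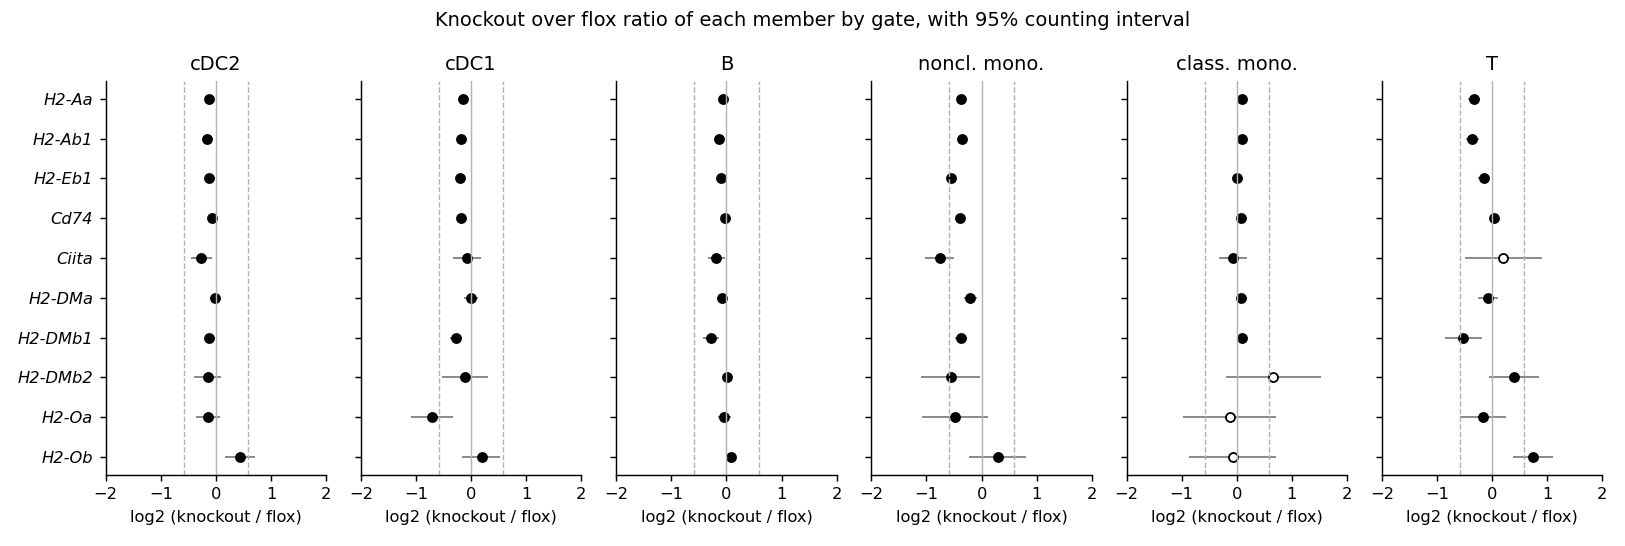
Log2 ratio of knockout over flox for each member in 6 gates; bars are the 95% counting interval, dashed lines mark 1.5-fold, and open points have fewer than 100 UMIs in both libraries together. Most points lie between the dashed lines; Ciita in nonclassical monocytes and H2-Oa in cDC1 lie below and H2-Ob in T cells above, and among the open points H2-DMb2 in classical monocytes lies above (0.66).

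The knockout nonclassical monocyte gate held less class II RNA than the flox gate, and fewer of its cells were positive. Class II UMIs were lower by a log2 ratio of -0.41 (-0.44 to -0.39), H2-Eb1 by -0.55 (-0.60 to -0.49), Cd74 by -0.40 (-0.42 to -0.37), H2-DMb1 by -0.37 (-0.48 to -0.26) and Ciita, with 350 and 188 UMIs, by -0.76 (-1.02 to -0.50). Cells with 10 or more class II UMIs were 193 of 545 in flox, or 35.4% (31.4 to 39.6). In knockout they were 118 of 523, or 22.6% (19.0 to 26.4). Each interval counts cells of 1 library and does not measure the spread between animals or libraries. Within the cells of 100 or more class II UMIs Cd74 was 15918 CPM in flox and 15869.7 in knockout, and within those of 10 to 99 it was 5829 and 5856. These groups were chosen by class II UMIs. In cells of this gate alone Cd74 correlated with H2-Ab1 (Spearman's 0.79 and 0.62), so its like levels are no separate result. Median depths of the gate were 11654 and 10883 UMIs; thinned to 1000 UMIs per cell the class II log2 ratio was -0.52.

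The difference was larger in cells of the nonclassical gate alone than over the whole gate. Among the 347 flox and 368 knockout cells that passed no other gate the class II log2 ratio was -0.67 (-0.71 to -0.63). There 5 members, H2-Aa, H2-Ab1, H2-Eb1, Cd74 and Ciita, were lower by more than 1.5-fold. The share over all genes was not computed for these cells, so this count has no background beside it. Of the cells that also passed the classical gate 36.9% (29.6 to 44.7) and 32.3% (24.4 to 41.1) held 10 or more class II UMIs, and of those that did not 34.7% (29.95 to 39.8) and 19.3% (15.6 to 23.6). Without cells of a dendritic gate the log2 ratio was -0.36 (-0.39 to -0.33). The macrophage markers C1qa, C1qb, C1qc and Mrc1 together stood at 131 and 79.6 CPM in the nonclassical gate and the cDC2 markers outside the gate at 34.1 and 25.3 CPM, and their part was not tested.

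The sexes were unequally represented and the difference was unequal between them. The nonclassical gate held 388 female and 53 male cells in flox and 241 female and 170 male cells in knockout. In female cells the class II log2 ratio was -0.91 (-0.95 to -0.87), with levels of 4001 and 2126.5 CPM. In male cells it was -0.21 (-0.27 to -0.15), with levels of 4084 and 3539.7 CPM. The share with 10 or more class II UMIs was 37.4% (32.5 to 42.4) and 21.2% (16.2 to 26.9) in female cells, and 34.0% (21.5 to 48.3) and 27.1% (20.5 to 34.4) in male cells, where the intervals overlap. Both sexes were lower in the knockout, by unequal amounts. The 104 and 112 cells whose sex was not called went the other way, with class II UMIs at 2705 and 3388 CPM and Ciita at 25.7 and 40.4 CPM. Ciita, with 269 and 42 UMIs in female and 56 and 97 in male cells, had log2 ratios of -1.83 (-2.33 to -1.35) and -0.67 (-1.16 to -0.17).

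**Figure D5:**
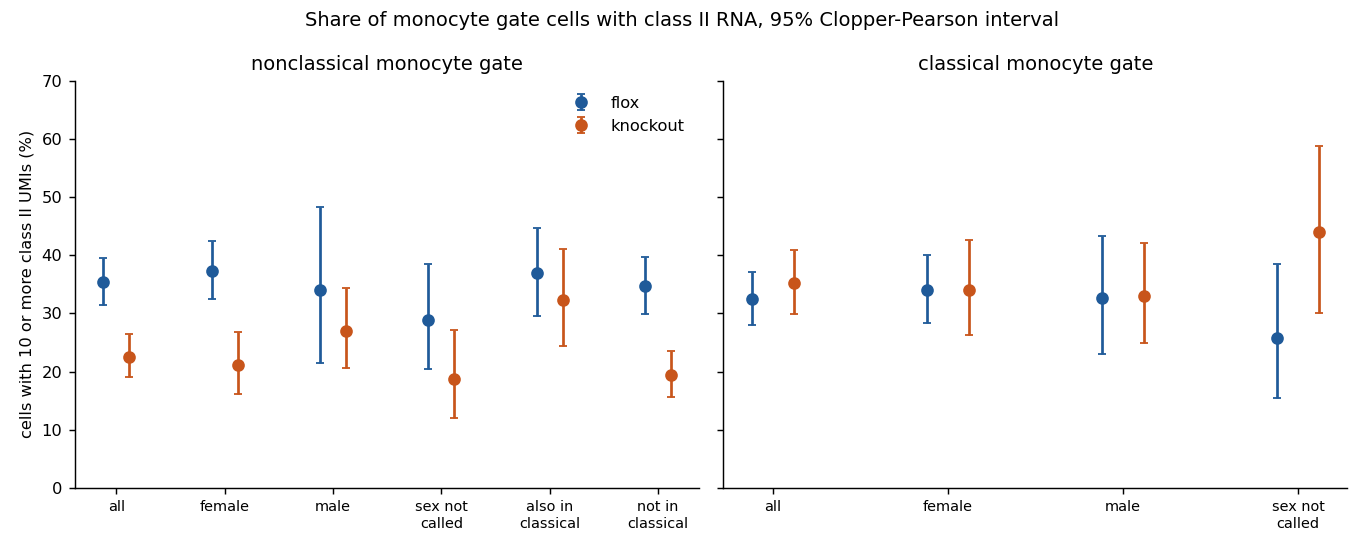
Share of cells (%) with 10 or more class II UMIs in the nonclassical (left) and classical (right) monocyte gate, over all cells, by sex and, for the nonclassical gate, by whether the cell also passed the classical gate; blue is flox, orange knockout, bars the 95% Clopper-Pearson interval. In the nonclassical gate the knockout share (22.6%) lies below the flox share (35.4%), in the classical gate the intervals of 32.5% and 35.3% overlap.

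In the classical monocyte gate the shares of positive cells overlapped. Cells with 10 or more class II UMIs were 32.5% (28.0 to 37.2) in flox and 35.3% (29.96 to 40.8) in knockout. The class II log2 ratio was 0.08 (0.04 to 0.11) over all cells but -0.11 in female and -0.13 in male cells. The 62 and 50 cells whose sex was not called held class II UMIs at 1366 and 4236 CPM. No direction is read from the pooled value. The difference between the monocyte gates was not tested, and 168 and 130 cells belong to both.

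Over all cells of the dendritic and B gates the class II log2 ratios were smaller, at -0.17 (-0.20 to -0.15) in cDC1, -0.13 (-0.15 to -0.11) in cDC2 and -0.09 (-0.11 to -0.08) in B cells. Within each sex this did not hold throughout. In cDC1 they were -0.61 in female cells (60 flox and 18 knockout) and -0.30 in male cells (27 and 30), against -0.21 in male nonclassical-gate cells. The 10 and 16 cDC1-gate cells whose sex was not called went the other way, with class II UMIs at 11809 and 15052 CPM. In cDC2 the ratios were -0.39 in female and 0.08 in male cells, and in B cells -0.10 in each sex. H2-Oa in the cDC1 gate had 202 and 83 UMIs, 90.6 CPM (78.5 to 104) against 55.5 (44.2 to 68.8), and a ratio of 0.612 (0.468 to 0.794). As the mean of each cell's CPM its log2 ratio was -0.48, within 1.5-fold, in female cells it was -0.55 (-1.39 to 0.20), and thinned to 1000 UMIs it had 10 and 2 UMIs, too few to read. H2-Ob there had a ratio of 1.14 (0.893 to 1.45). H2-Ob in the T gate, 7.72 against 12.9 CPM, passed the limit over all T-gate cells, but stood at 4.80 (3.65 to 6.18) and 6.21 (4.97 to 7.67) CPM in T cells of no other gate.

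B cells with very many class II UMIs were nearly all in the flox library. Cells of 200 or more class II UMIs were 18 of 632 flox B-gate cells, or 2.85%, and 0 of 1007 knockout cells, where the limit of 3 counts is 0.298% and the Clopper-Pearson upper bound 0.366%. Among B cells of no other gate, 29 of 607 in flox and 5 of 952 in knockout held 150 or more. The 29 flox cells were large, with a median of 18820 UMIs against 5931 in the rest, so that scaled to depth they stood less apart: H2-Aa was at 4349 against 4154 CPM, H2-Ab1 at 4176 against 2889.7 and Cd74 at 13210.2 against 15449. The median depth of the 5 knockout cells was 12829 UMIs, and they held no Cd80 UMI. In the flox tail Cd80, a co-stimulatory ligand, stood at 209 against 11.4 CPM, with a UMI in 69.0% against 2.60% of cells, and Cd86 at 584 against 373 CPM. The B marker Ms4a1 was found in all 29, and the T marker Cd3e had 1 UMI in all of them together. The limits of 150 and 200 were chosen after the data had been seen.

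Of 32 further genes of the pathway, 26 to 31 per gate reached 100 UMIs, and of these 0 to 4 were lower and 0 to 2 higher in the knockout by more than 1.5-fold. Over all genes the shares were 2.46% to 3.81% lower and 1.43% to 3.61% higher. The DNA-binding partners of Ciita (Rfx5, Rfxap, Rfxank, Nfya, Nfyb, Nfyc, Creb1) gave 1 of 7 in B cells, Nfya, at 29.0 and 43.8 CPM, and 0 in every other gate. The antigen-processing enzymes (Ctss, Ctsl, Ctsb, Ctsd, Lgmn, Ifi30, Sppl2a) gave 0 in all gates but T, where Ifi30, a lysosomal thiol reductase, was lower (59.2 and 35.6 CPM). The turnover genes March1, a ubiquitin ligase for class II, and Cd83 gave 0 in all gates, and Cd4 and Lag3, the class II receptors of T cells, gave 0 wherever they reached 100 UMIs.

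Co-stimulation and the interferon-gamma arm held most of the rest. Cd80 and Cd86, the ligands of CD28, were lower in knockout B cells, Cd80 with 174 and 21 UMIs and a ratio of 0.0796 (0.0480 to 0.126) and Cd86 with a ratio of 0.665 (0.622 to 0.710). Among B cells of no other gate with fewer than 150 class II UMIs the ratio was 0.173 (0.0825 to 0.336) for Cd80, with 40 and 12 UMIs, and 0.723 (0.672 to 0.778) for Cd86, which then no longer passed 1.5-fold. Cd80 was also lower in the T gate (11.5 and 7.40 CPM). Cd40, the receptor for T cell help, was lower in cDC2 (50.5 and 23.9 CPM) and classical monocytes (39.8 and 24.9 CPM). Socs1, an inhibitor induced by interferon-gamma, was lower in nonclassical (40.9 and 23.4 CPM) and classical monocytes (60.9 and 30.01 CPM), and the kinase Jak2 in T cells (178 and 97.3 CPM). Irf1 was higher in cDC1 (165 and 267 CPM). Of the lineage factors, Irf4 was higher in cDC1 (18.4 and 50.8 CPM) and Pax5 in the T gate (3.20 and 5.76 CPM), and 0 passed in the other gates. Cell type markers also differed in both gates. In the cDC1 gate its own markers Xcr1 and Cadm1 stood at 149.8 and 80.9 CPM and at 89.3 and 40.1 CPM. The 5 cDC1 markers that no gate used, Cadm1 among them, together differed less, at 2413.5 and 2055 CPM, and Irf8 of that list stood at 972 and 1021. Of markers of other types, Cd209a stood at 78.5 and 168 CPM there, and the plasmacytoid dendritic markers at 230.5 and 427. In the T gate Ms4a1 stood at 3.82 and 11.99 CPM and Cd79a at 14.0 and 39.7, and 11 and 37 cells also passed the B gate. Their part was not tested.

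Genes with at least 500 UMIs numbered 9280, members and gate markers included, and were ranked by likeness to the chains over the 12 gate-by-library sums. The 12 points are 6 gates seen in 2 libraries and share cells, and no p is given. Outside the members and gate markers, the 10 genes most like the chains had Pearson's r of 0.948 to 0.987 on log2(CPM + 1). They were Tcf4 (0.987), Hdac9 (0.982), Gm20513 (0.978), Pkib (0.975), Bcl11a (0.972), Fgd2, Lactb, Kynu, Colgalt1 and Wdfy4. Tcf4, a transcription factor, stood at 429 and 549 CPM in cDC1, 371 and 384 in cDC2, 315 and 252 in B cells, 112 and 94.1 in nonclassical monocytes and 14.3 and 15.3 in T cells. Gm20513 is annotated on the strand opposite H2-Eb1 and overlaps its first part (chromosome 17, 34293073 to 34308070). The members were left out of that list by design. Of them, Cd74 (0.991) and Ciita (0.993) had a higher r than Tcf4, and H2-DMa reached 0.984. H2-DMb1 (0.909), H2-DMb2 (0.706), H2-Oa (0.750) and H2-Ob (0.644) lay below the lowest r of the 10 genes (0.948).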

How the data were processed

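Values printed are from 2 single-cell libraries. The deposited matrices hold whole-number counts of UMIs per gene and barcode. Per the file headers they were written by Cell Ranger 4 (flox) and 7.0.1 (knockout), and the genome build was mm10, per the submitters' processing notes; per the labels' protocols the kit was a 3' kit of version v2, which is in doubt because the flox matrix lists more distinct barcodes than that version is known to have. The flox matrix holds 1002803 barcodes and 38623933 UMIs, the knockout matrix 4096 barcodes and 35944330 UMIs. Barcodes with at least 1000 UMIs and less than 10% mitochondrial UMIs were kept and gated on marker UMIs.

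UMIs were summed per gate and library and scaled to CPM (Python 3.11.15, scipy 1.17.1). Intervals at 95% are exact Poisson for levels, conditional binomial for ratios and Clopper-Pearson for shares; a count of 0 is given a limit of 3. Ratios were checked on Poisson counts simulated from the summed profile of the flox B gate. These counts held no spread between cells or libraries, so the check does not cover such spread. Doublets (Scrublet in scanpy 1.11.5) were called in 19 flox cells (0.556%) and 55 knockout cells (1.38%) and kept. Cells with an Xist UMI and no Y-linked UMI were called female, the reverse male.

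The 10 members and the gene, marker and motif lists were chosen with earlier results of these data known. Named genes are the members, pathway genes past 1.5-fold with at least 100 UMIs, and the 10 genes of most similar pattern. Alternatives were other filters, stricter gates, cells of 1 gate, doublets removed, thinning to 1000 UMIs, each cell's own CPM, scaling by the median ratio, leaving out the highest cell, each sex, and, added after seeing the data, monocytes outside the dendritic gates and B cells under 150 class II UMIs. Some genes of the fixed lists are not reported here.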

Additional observations from a re-analysis of the deposited data

Results flagged for a closer look

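In 2 gates the class II log2 ratio of knockout over flox had opposite signs in female and male cells, with counting intervals on either side of 0. These intervals do not measure the spread between cells, animals or libraries, and the difference between the sexes was not tested. In the cDC2 gate it was -0.39 (-0.42 to -0.36) in female and 0.08 (0.04 to 0.11) in male cells, with 156 and 54 female and 34 and 64 male cells. In the T gate it was -0.27 (-0.36 to -0.18) in female and 0.68 (0.51 to 0.86) in male cells, where a few cells that also pass another gate hold nearly all of these UMIs.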

How the results depend on the processing

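No paired analysis was possible because each group has 1 library. Values are class II log2 ratios (over all cells -0.09 in B, 0.08 in classical, -0.41 in nonclassical, -0.17 in cDC1, -0.13 in cDC2, -0.27 in T) and, where they changed, numbers of members past 1.5-fold. In cells of 1 gate only the ratios were -0.04 in B, 0.27 in classical, -0.67 (5 members) in nonclassical, -0.13 in cDC1, -0.09 (1 member) in cDC2 and -0.18 (0) in T. In female cells they were -0.11 (1) in classical, -0.91 (6) in nonclassical, -0.61 (2) in cDC1 and -0.39 (2) in cDC2; in male cells -0.13 in classical, -0.21 in nonclassical, -0.30 (2) in cDC1, 0.08 (2) in cDC2 and 0.68 (4) in T. Thinned to 1000 UMIs they were -0.03 in B, 0.11 in classical, -0.52 in nonclassical, -0.14 (0) in cDC1, -0.22 in cDC2 and 0.17 (0) in T. As the mean of each cell's CPM they were -0.05 in B, 0.17 in classical, -0.47 (2) in nonclassical, -0.20 in cDC2 and 0.13 (2) in T, and 0 members passed in cDC1. With stricter gates they were -0.37 (2) in nonclassical, -0.29 in cDC1, -0.08 (1) in cDC2 and 0.14 in T. With doublets removed they were -0.05 in B and -1.05 (5) in T, and 2 members passed in nonclassical. Without the highest cell they were -0.22 in cDC1 and -0.08 (2) in T. Scaled by the median ratio they were 0.04 in classical and -0.16 in cDC2, and outside the dendritic gates 0.18 in classical and -0.36 in nonclassical monocytes. Shares past 1.5-fold over all genes were not computed for these alternatives, so their numbers of members have no background beside them. The cause of these shifts was not tested. The nonclassical ratio stayed below 0 in every alternative run, and the T ratio changed sign in 4 of them. Depth limits what can be read from H2-O and H2-DMb2 outside the B and dendritic gates.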

Other observations

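Cells outside all 6 gates held 14.3% of the class II UMIs of the flox library and 7.56% of those of the knockout library. Of them 68 flox and 27 knockout cells held 100 or more, with Cd74 at 21090.2 and 18830 CPM and Ciita at 221 and 207 CPM, levels like those of the dendritic gates. Flt3 was found in 61.8% and 40.7% of these cells, Zbtb46 in 45.6% and 29.6%, and C1qb, a macrophage complement gene, in 16.2% and 40.7%. The gates thus miss class II-positive cells.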
